A study of Homo sapiens with 18 samples.

Results

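SELENOH was followed through the 18 libraries of an RNA immunoprecipitation sequencing (RIP-seq) study as a single row of the deposited count table, the Ensembl ID ENSG00000211450, 1 of 58676 IDs. In this assay a tagged protein is pulled out of a lysate and the RNA that comes down with it (RIP) is set beside RNA of the same lysate before the pull-down (input). The cells are given as HEK 293T, a human embryonic kidney line, although the growth protocol gives the name without the T, and 3 treatments were compared: a Flag-SBP2 plasmid, a Flag-SBP2 plasmid with 100 nM sodium selenite added 4 h after transfection, and a Flag plasmid without SBP2 (control). All lysates were made 48 h after transfection, and each treatment had input and RIP libraries from 3 biological replicates, which gave 6 groups. SBP2 was tagged and transiently overexpressed, so its amount was not that of untransfected cells. Cells with selenite and without Flag-SBP2 were not analysed here, so every effect of selenite was measured on top of SBP2.

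SELENOH is a small selenoprotein of the nucleus, with a thioredoxin-like fold and a selenocysteine in its redox motif. Selenocysteine is encoded by UGA, which is normally a stop codon. It is read as an amino acid only where the mRNA carries a SECIS element, a stem-loop that in animals lies behind the coding sequence. SBP2 binds this stem-loop and brings in the elongation factor that carries the selenocysteine tRNA. In mice, the mRNA of the matching gene is among the selenoprotein mRNAs whose level falls when selenium is short.

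In the RefSeq annotation of GRCh38.p14, SELENOH is a protein-coding gene on the forward strand at chr11:57741491-57743550, a span of 2060 bases. The last 37 bases of that span are shared with BTBD18 on the reverse strand. All of it lies within the span of TMX2-CTNND1, a readthrough transcript on the same strand. How reads in such overlaps were assigned, by strand or otherwise, is not given in the sources used here. The counts of SELENOH may therefore hold reads of these genes, or lack some of its own. The SECIS element, the transcript and the protein of SELENOH are not printed, since no sequence of them was used here.

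The libraries held between 15.2 and 29.9 M counts in all (M, 1e+06). Libraries of a group differed from each other by 4.70 to 26.5 times what counting noise allows, so none was a copy of another. The gene behind SBP2, the other selenoprotein genes and markers of the cell line could not be looked up, because the files list IDs without symbols and 0 of 59792 genes in the reference table carried an Ensembl ID. The labels of treatment and cell line were thus not checked against their own genes.

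SELENOH mRNA was abundant in the precipitates of Flag-SBP2 and scarce in that of the Flag control. Levels are given as CPM, counts per 1e+06 counts of the library, scaled by TMM, a factor per library that aligns the bulk of genes. With SBP2 the RIP libraries held 482.5, 600.2 and 599.6 CPM in replicates 1, 2 and 3, against 63.2, 48.6 and 48.1 CPM in the matching inputs. The first lysate had both the lowest RIP level and the highest input level of this treatment. With SBP2 and selenite the RIP libraries held 775.2, 744.0 and 893.2 CPM, against 77.4, 73.4 and 76.3 CPM in the inputs. Here the inputs were close together and every RIP library exceeded every RIP library without selenite. Control RIP libraries held 28.4, 31.1 and 24.2 CPM, against 66.1, 51.7 and 51.5 CPM in control inputs. Input and RIP did not overlap in any of the 3 treatments, and control was the treatment in which RIP was the lower of the pair.

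**Figure D1:**
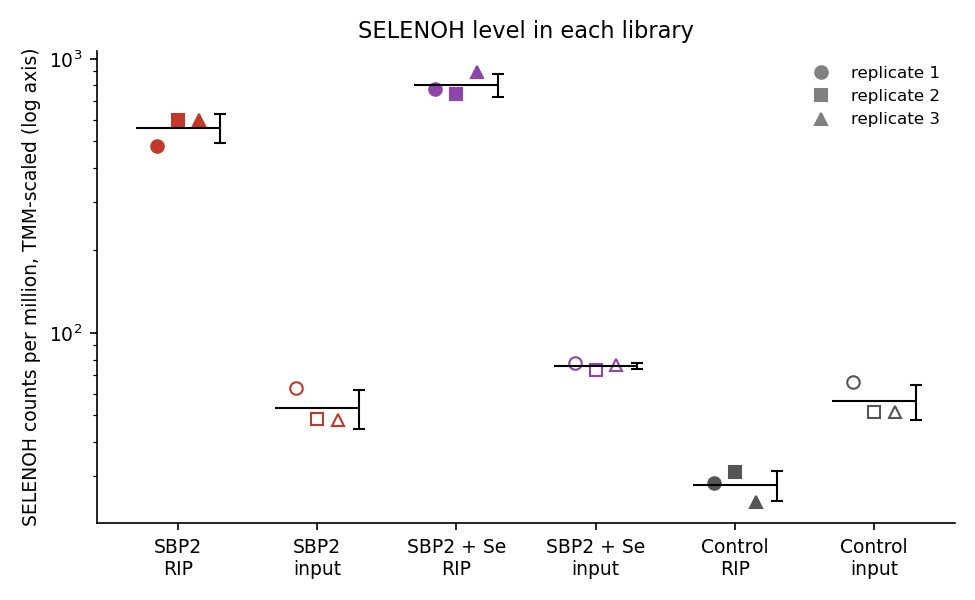
SELENOH level in each of the 18 libraries, as TMM-scaled CPM on a log axis. Filled symbols are RIP libraries and open symbols inputs, symbol shape gives the replicate number, horizontal lines are group means and error bars the SD (n = 3). The SBP2 RIP libraries sit between 482.5 and 893.2 CPM, and the control RIP libraries at or below 31.1 CPM.

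By group mean the order of levels was RIP with SBP2 and selenite at 804 ± 78.7 CPM, RIP with SBP2 at 561 ± 67.8 CPM, input with SBP2 and selenite at 75.7 ± 2.07 CPM, control input at 56.4 ± 8.39 CPM, input with SBP2 at 53.3 ± 8.58 CPM and control RIP at 27.9 ± 3.47 CPM (SD, n = 3 each). SBP2 input and control input were the neighbours in this order whose libraries overlapped. In every other pair of neighbours the libraries did not overlap. How many other IDs were without overlap, here or between input and RIP, was not counted. Behind these levels stood 11963 to 16924 counts per RIP library with SBP2, 18020 to 20162 with SBP2 and selenite, and 798 to 843 in control RIP. The inputs held 816 to 1043 counts with SBP2, 1235 to 1415 with SBP2 and selenite, and 927 to 1026 in the control.

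Counting error was small beside the spread of replicates. For RIP with SBP2 the coefficient of variation of unscaled CPM was 12.4%, where counting alone gives 0.817%. For RIP with SBP2 and selenite it was 8.60%, where counting gives 0.728%. The inputs with SBP2 and selenite were the exception, with a coefficient of variation of 0.646% and a counting error of 2.72%. These 3 libraries agreed within counting error. Reads are not independent molecules, so these figures cover counting error only. The biological coefficient of variation that edgeR fitted to SELENOH was 10.1%, against a median of 10.0% over all tested IDs.

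The enrichment over control compared the RIP-to-input ratio of SELENOH with SBP2 to that in the Flag control. CPM are shares of a library, so these ratios are relative and not amounts of RNA recovered. SELENOH was higher in RIP than in input in each lysate with SBP2 and lower in each control lysate. Its log2 RIP-to-input ratio was 2.93, 3.62 and 3.64 in SBP2 lysates, which is 7.62-, 12.3- and 12.4-fold. In lysates with SBP2 and selenite it was 3.32, 3.34 and 3.55, or 10.0-, 10.1- and 11.7-fold. In control lysates it was -1.22, -0.73 and -1.08, so SELENOH in control RIP stood at 0.430, 0.604 and 0.471 times its input. No lysate with SBP2 overlapped the control lysates, while SBP2 lysates with and without selenite overlapped. The share of other IDs whose ratios separate in this way was not counted.

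**Figure D2:**
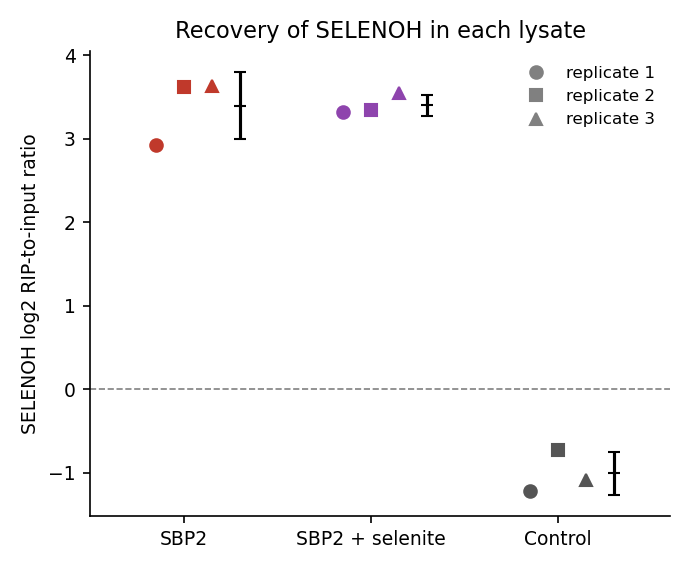
Log2 RIP-to-input ratio of SELENOH in each of 9 lysates, by treatment, with mean and SD (n = 3) to the right of the points. The dashed line marks equal levels in RIP and input. All 6 lysates with SBP2 lie at 2.93 or above and the 3 control lysates at -0.73 or below.

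The mean ratio was 3.40 ± 0.40 with SBP2, against -1.01 ± 0.25 in the control (SD, n = 3 each). The enrichment over control was 4.41 on the log2 scale (SE 0.175, 95% interval 4.05 to 4.77, edgeR adjusted p = 4.81e-16), a fold of 21.3 with an interval of 16.6 to 27.3. This fit did not pair input with RIP of a lysate. With each lysate as a block, which pairs them, the value was again 4.41 (edgeR adjusted p = 1.20e-13). Of 17678 tested IDs 21.7% passed as higher in this comparison, and the median of all was 0.022. SELENOH ranked 14th from the highest of the 17678, and 9th among the 13334 more abundant IDs. These are IDs whose average abundance, as edgeR computes it, was at least 1 on the log2 CPM scale. The two-sided exact permutation test over lysates gave p = 0.1, the smallest that 3 against 3 allow.

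With selenite the mean ratio was 3.40 ± 0.13, against -1.01 ± 0.25 in the control (SD, n = 3 each). The enrichment over control was 4.42 (SE 0.174, 95% interval 4.06 to 4.78, edgeR adjusted p = 5.56e-16), a fold of 21.4. With each lysate as a block it was also 4.42 (edgeR adjusted p = 1.88e-13). In this comparison 19.3% of tested IDs passed as higher, and the median of all was 0.026. SELENOH ranked 11th of 17678, and 10th of the 13334 more abundant IDs. The exact permutation p was again 0.1. Both enrichments use the same 3 control lysates, so they are not independent of each other.

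**Figure D3:**
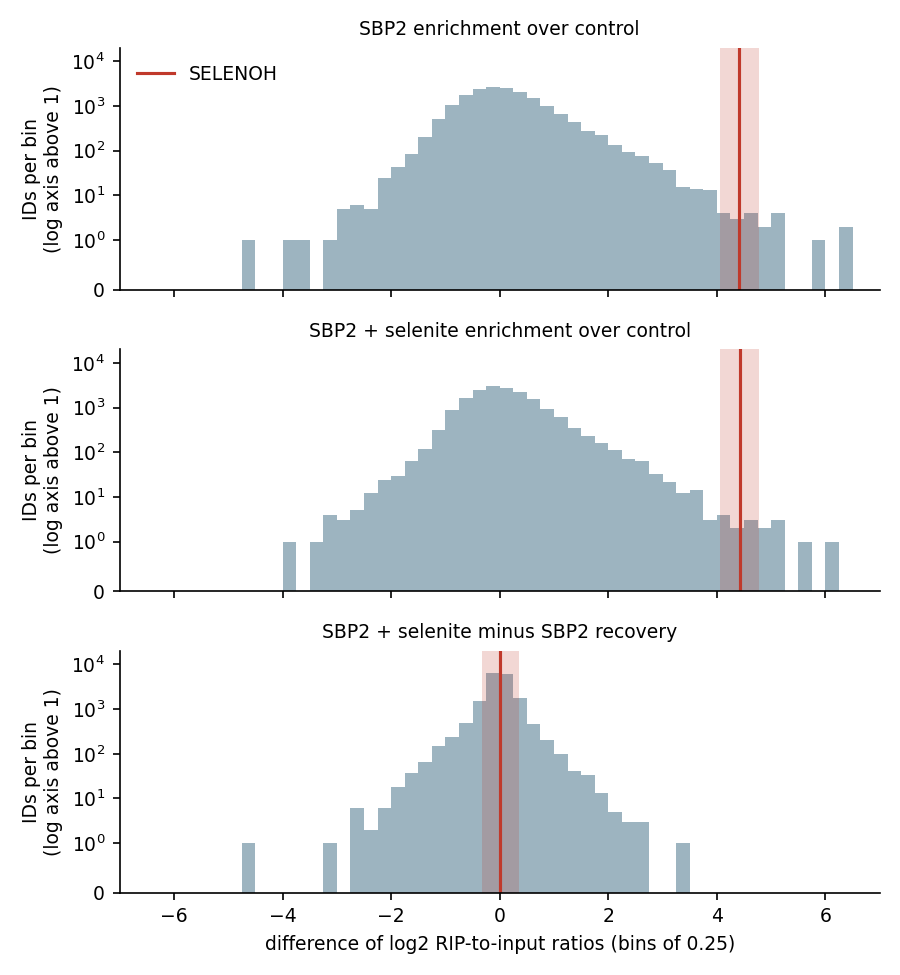
Number of tested IDs by difference of log2 RIP-to-input ratios, in bins of 0.25, with counts on a log axis above 1. The panels show SBP2 over control, SBP2 with selenite over control, and SBP2 with selenite over SBP2. The red line is SELENOH and the shaded band its 95% interval, at 4.41 and 4.42 in the far right of the upper panels and at 0.011 near the centre of the lowest.

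An enrichment of this kind adds a higher share in RIP with SBP2 to a lower share in control RIP, and SELENOH had both. Against its own input SELENOH was higher by 3.40 in SBP2 RIP (SE 0.127, edgeR adjusted p = 7.41e-17). With selenite the same value was 3.41 (SE 0.126, edgeR adjusted p = 6.04e-17). Of all tested IDs 30.3% passed as higher in the first comparison and 30.7% in the second. SELENOH was the 4th highest of the 17678 without selenite and the 3rd highest with it, so it stood nearer the top here than in the enrichments over control. In the control SELENOH fell by 1.01 against input (log2 -1.01, SE 0.123, edgeR adjusted p = 5.93e-08), and 39.8% of tested IDs passed as lower there. In all, 22.4% of IDs had a lower control value than SELENOH, and the median of all was -0.13.

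Precipitates can also be set against each other without the inputs. SELENOH was higher in SBP2 RIP than in control RIP by 4.33 on the log2 scale (SE 0.133, edgeR adjusted p = 9.64e-19), a fold of 20.1 with a 95% interval of 16.6 to 24.3. In that comparison 29.4% of tested IDs passed as higher. With selenite the difference was 4.85 (SE 0.136, edgeR adjusted p = 2.37e-19), a fold of 28.8 with an interval of 23.8 to 35.0, and 27.1% of IDs passed as higher. The fold was thus larger with selenite when RIP libraries alone were compared, whereas the enrichments that include the inputs were 21.4 and 21.3.

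Whether selenite changed the relative recovery of SELENOH was tested as the difference of RIP-to-input ratios between SBP2 with selenite and SBP2 alone. That difference was 0.011 (SE 0.166, edgeR adjusted p = 0.996), with a 95% interval from -0.33 to 0.35, or 0.795- to 1.28-fold. Changes in recovery within this interval could not be resolved with 3 lysates per treatment. The fit did not pair input with RIP of a lysate, and its spread was estimated over all 6 groups. Ratios per lysate had an SD of 0.40 with SBP2 and 0.13 with SBP2 and selenite (n = 3 each). Changes somewhat beyond the interval may therefore go unresolved too. With each lysate as a block, which pairs its input and RIP, the difference was 0.0048 (edgeR adjusted p = 0.997). The two-sided exact permutation test gave p = 1. No ID passed this comparison (0% of 17678 by edgeR, 1 ID by DESeq2 and 0 by limma voom), and 800 IDs had an unadjusted edgeR p under 0.05. The sign of this small value turned with the normalisation, the test and the library left out.

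In these libraries the level of SELENOH itself was higher with selenite, on both sides of the precipitation. In the main edgeR fits, which have no block, neither difference passed. In inputs SELENOH was at 77.4, 73.4 and 76.3 CPM with selenite, against 63.2, 48.6 and 48.1 CPM without, and the groups did not overlap. Such a separation of 3 against 3 gives a two-sided exact permutation p of 0.1. The share of all IDs that separate in this way was not counted. Between libraries of the same replicate number the folds were 1.22, 1.51 and 1.58. In RIP libraries the folds were 1.61, 1.24 and 1.49. All 6 of these pairs were higher with selenite. Input and RIP of a number come from the same lysate, so these are 3 pairs of lysates and not 6 independent pairs. In bulk lysates a higher level in every cell cannot be told apart from more cells with a high level.

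The input difference with against without selenite was 0.51 on the log2 scale (SE 0.125, 95% interval 0.24 to 0.77), a fold of 1.42. It did not pass without a block (edgeR adjusted p = 1.00, unadjusted p = 0.00111), in a comparison where 0.00602% of 16616 IDs passed as higher. With the replicate number as a block it passed, at 0.52 (edgeR adjusted p = 0.00277), where 0.223% of IDs passed in either direction. The fit without a block was the main one and the block an alternative. Same-numbered inputs of these treatments deviated together, so the blocked value is given beside the main one. The two-sided exact permutation test gave p = 0.1, the smallest that 3 against 3 allow, and its paired form p = 0.25, the smallest for 3 pairs. The median of all tested IDs was 0.0010, and 98.2% of IDs had a lower value than SELENOH.

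In RIP libraries the difference with against without selenite was 0.52 (SE 0.114, 95% interval 0.28 to 0.76), a fold of 1.43. Over 18 libraries it did not pass (edgeR adjusted p = 0.0961), and 0.00566% of 17678 IDs passed as higher. It passed in a fit over the 9 RIP libraries (edgeR adjusted p = 0.00814), with DESeq2 (adjusted p = 0.00952) and with limma voom (adjusted p = 0.0318). In that order, 0.607%, 1.7% and 0.187% of IDs passed in either direction, for DESeq2 of the IDs given an adjusted p. More IDs thus passed in these fits than in the main one. With the replicate number as a block the RIP difference was 0.52 and passed (edgeR adjusted p = 0.000796), where 1.37% of IDs passed in either direction. It ranked 383rd from the highest of all 17678 tested IDs, and 8th among the 13334 more abundant ones. The sizes in RIP and input, 0.52 and 0.51, nearly cancel in the ratio, which gave the difference of 0.011 above. The single ID that passed in both comparisons was ENSG00000178980, named after its values were seen, at 1.16 in RIP (edgeR adjusted p = 5.84e-07) and 1.18 in input (edgeR adjusted p = 0.00216).

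**Figure D4:**
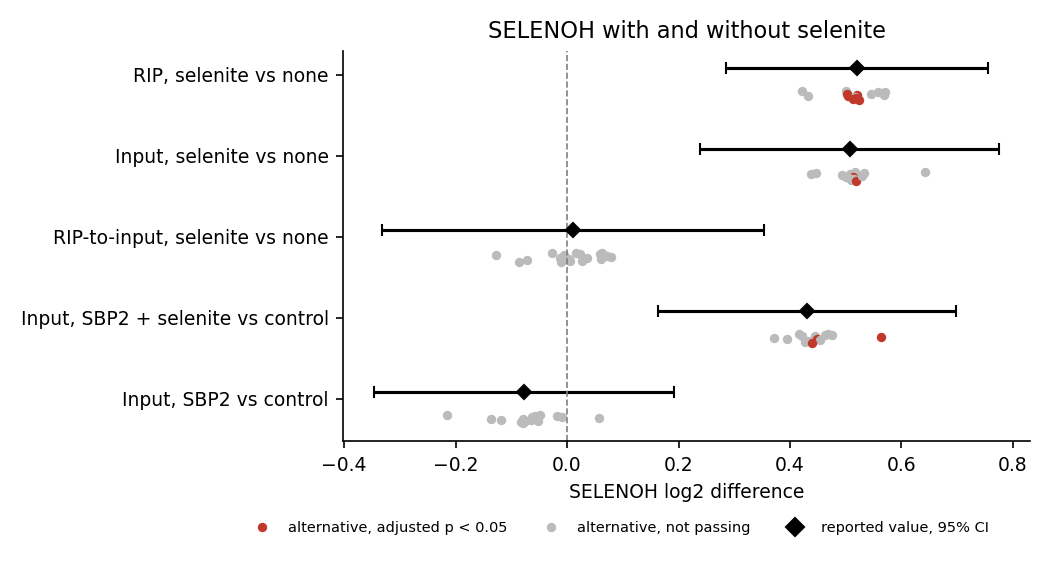
Log2 differences of SELENOH for 5 comparisons. Black diamonds with bars are the reported values with 95% intervals, and the dots below them the same comparison under each alternative setting or with a library left out, red where the adjusted p was under 0.05. RIP and input values with against without selenite lie at 0.52 and 0.51, and the difference of their ratios at 0.011.

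Flag-SBP2 without selenite left SELENOH in the input near its control level. Inputs held 63.2, 48.6 and 48.1 CPM with SBP2, against 66.1, 51.7 and 51.5 CPM in the control. The groups overlapped. The difference was -0.077 (SE 0.126, 95% interval -0.35 to 0.19, edgeR adjusted p = 0.801), where 0.518% of IDs passed as lower. Between same-numbered inputs the log2 differences were -0.065, -0.089 and -0.098, while replicate 1 lay above replicates 2 and 3 in both treatments. With the replicate number as a block the difference was -0.078 and did not pass (edgeR adjusted p = 0.542). The sign turned without control input replicate 1, to 0.057 (edgeR adjusted p = 0.815), in a fit that kept the high SBP2 replicate 1.

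Inputs with SBP2 and selenite were set against control inputs for the combined effect. SELENOH was 0.43 higher (SE 0.125, 95% interval 0.16 to 0.70), a fold of 1.35, and did not pass without a block (edgeR adjusted p = 0.169, unadjusted p = 0.00378). In that comparison 0.307% of IDs passed as higher. With the replicate number as a block the value was 0.44 and passed (edgeR adjusted p = 0.000716), where 6.8% of IDs passed in either direction. It also passed without control input replicate 1, the highest control input, at 0.56 (edgeR adjusted p = 0.0405). Same-numbered pairs were higher with selenite in 3 of 3, by 1.17-, 1.42- and 1.48-fold.

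The IDs whose pattern was most like that of SELENOH were found among 13204 others whose log2 CPM averaged at least 1. By Pearson correlation of log2 CPM over 18 libraries, the closest was ENSG00000211445 (r = 0.992), then ENSG00000273559 (r = 0.984), while the median ID had r = -0.016. These libraries fall into separate groups, and the 10th closest ID still had r = 0.979. After the mean of each group was subtracted, the correlation over the 18 libraries was -0.080 for ENSG00000211445 and 0.44 for ENSG00000273559. Only 12 degrees of freedom remain after this step, so these within-group values are imprecise. By root-mean-square difference of log2 RIP-to-input ratio over 9 lysates, the closest was ENSG00000183291, at 0.26, then ENSG00000211445, at 0.48, against a median of 2.85. The within-group correlation of ENSG00000183291 with SELENOH was 0.64.

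The values of these IDs are set beside those of SELENOH without a test of the difference. ENSG00000183291 had log2 ratios of 3.41 ± 0.27 with SBP2, 3.55 ± 0.41 with SBP2 and selenite, and -0.94 ± 0.42 in the control (SD, n = 3 each). Its enrichments of 4.37 and 4.51 stood beside 4.41 and 4.42 for SELENOH, and the mean ratios of SELENOH lay within its SDs in all 3 treatments. Its input value with against without selenite was -0.28 (edgeR adjusted p = 1.00), where SELENOH was at 0.51. ENSG00000211445 had smaller enrichments, of 3.89 and 3.63, and an input value of 0.27 with selenite (edgeR adjusted p = 1.00). ENSG00000273559 had lower ratios with SBP2 than SELENOH, of 1.68 ± 0.058 with SBP2, 1.46 ± 0.035 with SBP2 and selenite, and -0.31 ± 0.097 in the control (SD, n = 3 each). These IDs were chosen for their likeness, so their values are a description.

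**Figure D5:**
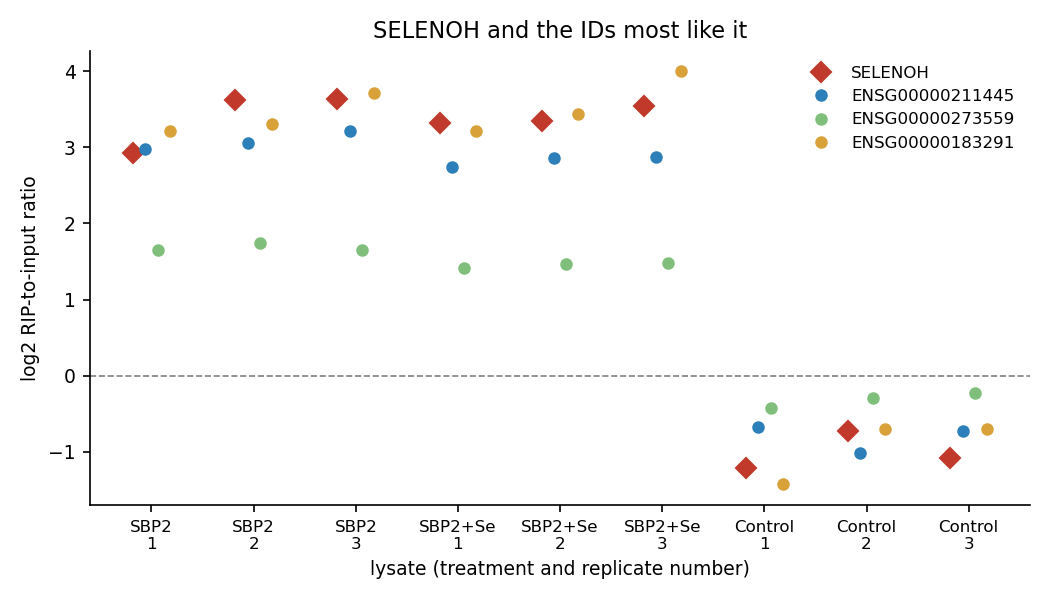
Log2 RIP-to-input ratio of SELENOH (diamonds) and of the 3 most similar IDs (circles) in each of 9 lysates. SELENOH and ENSG00000183291 lie close together in all 3 treatments, while ENSG00000273559 lies lower with SBP2, at 1.68 on average.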

How the data were processed

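The data were 18 libraries of HEK 293T cells, input and RIP of 3 treatments. Per the labels' protocols, RIP used 4 mg protein and anti-Flag beads (5 h, then washes at 300 and 500 mM KCl), and 1 part in 5 was kept as input. The authors deposited whole-number counts per Ensembl ID. Trim Galore 0.6.6, STAR 2.7.6a, featureCounts 2.0.1 and GRCh38 are named in the submitters' processing notes, with annotation and strand setting not given in the sources used here.

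Samples were grouped by title. IDs were filtered with filterByExpr (minimum count 10, minimum total 15), which kept 17678 IDs over 18 libraries and 16616 over 9 inputs, with at least 99.9% of counts in each library. Counts were scaled by TMM and tested with the quasi-likelihood test of edgeR 4.0.16 in R 4.3.3, two-sided, with Benjamini-Hochberg adjustment over all tested IDs and a threshold of 0.05. Comparisons with RIP libraries used a group-means model of 18 libraries, and input comparisons the 9 inputs. Standard errors and 95% intervals come from the test statistic. Ratios per lysate are differences of log2 CPM (prior count 2). The fit was tested on simulated data. Alternatives were other normalisations, filters and libraries in the fit, DESeq2 1.42.0, limma 3.58.1 (voom), replicate blocks and each library left out.

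The labels do not say whether replicates were transfected on separate days, so p-values measure the spread between these samples. Same-numbered input and RIP of a treatment were taken as the same lysate, since the input was drawn from it (correlation of deviations from group means 0.0012 to 0.20). Same-numbered inputs with selenite and with SBP2 alone correlated at 0.11 to 0.19, and inputs with selenite and control at 0.13 to 0.31, so these were taken as pairs. For inputs of SBP2 and control the same-numbered correlations were 0.085 to 0.22, against at most 0.027 between different numbers. Because of the lowest value, these inputs were not taken as pairs outside the blocked fit. Their same-numbered differences are listed above as a description only. That fit gave same-numbered inputs of all treatments a shared effect, so its input values treat SBP2 and control inputs as paired too.

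SELENOH and all gene lists were chosen with earlier results of these data known. The naming rule took SELENOH, its genomic neighbours, and the IDs most like it by each of 2 measures, at most 2 by each without symbols. The lists of selenoproteins, selenocysteine factors, decay factors, related proteins and cell markers were not used, since their IDs could not be paired with symbols.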

Additional observations from a re-analysis of the deposited data

How the results depend on the processing

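In 12 comparisons SELENOH was refitted under 204 alternatives, of which 183 kept direction and side of the threshold, 11 newly passed, 0 ceased to pass and 10 changed sign. Enrichment over control ranged from 4.26 to 4.55 with SBP2 and from 4.26 to 4.49 with selenite, and passed in all 21 alternatives of each. As the mean ratio per lysate, the enrichment with selenite was 4.28 with library size alone, against 4.41 with TMM. The difference in recovery with selenite was -0.026 with upper-quartile factors, -0.0056 with DESeq2 size factors, -0.0046 with the DESeq2 test, -0.012 without filtering and -0.0044 with limma voom, and ran from -0.13 to 0.080 as libraries were left out. It never passed, and the cause of its sign was not tested.

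RIP with against without selenite passed with the DESeq2 test (0.50), limma voom (0.52), no low-count filter (0.50, adjusted p = 8.82e-05), the 2 groups alone (0.52, adjusted p = 0.00931), the 9 RIP libraries (0.51) and the replicate number as a block (0.52, adjusted p = 0.000796). Same-numbered RIP libraries of these treatments correlated at 0.053 to 0.14, although they come from the lysates whose inputs were taken as pairs. Between different numbers the correlation reached 0.059, so these RIP libraries alone do not clearly show pairing by number. Without single libraries it was 0.42 to 0.57 and did not pass, and the cause was not tested. Inputs with against without selenite passed with the block (0.52) and without filtering (0.51, edgeR adjusted p = 0.0221), where 0.0852% of IDs passed. As single libraries were left out this input difference was 0.44 to 0.64 and did not pass. Inputs with SBP2 and selenite against control passed with the block (0.44), without a filter (0.45, adjusted p = 0.0215) and without control replicate 1, in a range of 0.37 to 0.56. SBP2 against control inputs ran from -0.21 to 0.057 as libraries were left out. The block changed no other call for SELENOH. With the block the share of all IDs that passed was 16.5%, against 0.879% without it, for SBP2 against control inputs, and 6.8% against 0.554% for selenite against control inputs. It was 0.223% against 0.00602% for inputs with against without selenite, and 1.37% against 0.00566% for the RIP libraries of these treatments. Depth did not limit SELENOH, which had at least 798 counts in each library.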
